A study of Homo sapiens with 4 samples.

Results

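The genes described here are those of the proteasome: 43 genes of the 60662 in the deposited table whose symbols are PSMA, PSMB, PSMC, PSMD, PSME, PSMF or PSMG followed by a number, without the 5 interferon-inducible genes PSMB8, PSMB9, PSMB10, PSME1 and PSME2. They were measured by poly(A) RNA sequencing in NB4 cells, a human acute promyelocytic leukaemia line that carries the PML-RARα fusion. The vector group (n = 2 libraries) was transduced with an empty control vector, and the JMJD3 group (n = 2 libraries) with a vector that expresses JMJD3 (KDM6B), a demethylase of histone H3 lysine 27. Total deposited counts were 39078443 and 40768225 in vector replicates 1 and 2, and 35176388 and 34704909 in JMJD3 replicates 1 and 2. The labels put vector replicate 1 on sequencing lane 20, and vector replicate 2 and both JMJD3 libraries on lane 17. No source used here says whether the replicates were separate cultures, so the p-values measure the spread between these libraries, which may be technical.

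The proteasome degrades proteins that have been tagged with ubiquitin. Its core particle is a barrel of stacked alpha and beta rings, with the proteolytic sites on the beta subunits PSMB5, PSMB6 and PSMB7 inside it. A regulatory particle caps the barrel. Its base holds a ring of ATPases that unfold the substrate and feed it into the core, and its lid removes the ubiquitin chain. Dedicated chaperones assemble both particles. Cells that make much protein depend on it, and PSMB5 is the main target of the inhibitor bortezomib.

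KDM6B (ENSG00000132510), the gene carried by the JMJD3 vector, was at 15.8 and 13.7 CPM in the vector libraries and at 37.8 and 44.2 CPM in the JMJD3 libraries, where CPM is the deposited count per 1000000 of the library size after TMM scaling. Both JMJD3 libraries lay above both vector libraries, with a log2 fold change of 1.48 (SE 0.13, edgeR adjusted p = 0.00114), and these counts cannot tell the vector's transcript from the cell's own. Of the 6 promyelocytic markers, MPO was the most abundant, at 13900 and 14100 CPM in the vector libraries and 9380 and 9420 CPM in the JMJD3 libraries, while ELANE stayed below 0.4 CPM in all 4. The 6 markers summed to 16600 and 17400 CPM in the vector libraries and to 10500 and 10400 CPM in the JMJD3 libraries, and of the 5 that were tested 4 fell and 1, CD33, rose. Their log2 fold changes were -3.905 for CTSG, -1.81 for PRTN3, -0.57 for MPO, -0.56 for AZU1 and 0.29 for CD33. The erythroid markers HBB and HBA1 and the B cell marker MS4A1 were at 0 in every library. The 3 T cell markers summed to 3.76 and 5.18 CPM in the vector libraries and 11 and 11.1 CPM in the JMJD3 libraries, nearly all of it CD2, with CD3E at 0.0549 CPM or less. The 3 B cell markers summed to 10.4 and 11.6 CPM, then 17.6 and 15.9 CPM, most of it CD79A. The part of these markers in the results on the proteasome was not tested, and in bulk RNA fewer cells of a type and less RNA per cell cannot be told apart.

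Transcripts of the proteasome were lower in the JMJD3 libraries. The 43 genes together took 0.627% and 0.670% of all deposited counts in the vector libraries and 0.582% and 0.566% in the JMJD3 libraries. After TMM scaling, with factors of 0.949 and 0.937 for the vector libraries and 1.05 and 1.07 for the JMJD3 libraries, they summed to 6611.5 and 7155.6 CPM and then to 5525.2 and 5303.8 CPM. The difference is thus larger in CPM than as a share of the counts. Of the 43, 41 passed the filter on low counts and were tested. PSMA8, the testis form of an alpha subunit, and PSMB11, the thymus form of a beta subunit, had 0 counts in all 4 libraries, which at a limit of 3 reads allows at most 0.0925 CPM in vector replicate 1 and less in the other 3. In the edgeR quasi-likelihood test, with p-values adjusted over all 15246 genes tested, 24 of the 41 fell (58.5%, adjusted p under 0.05), where 19.1% of all genes tested fell. None of the 41 rose in that test, where 21.6% of all genes tested did. A single subunit, PSMD5, was higher at an unadjusted p under 0.05, and DESeq2 and limma also called 0 higher. At that unadjusted p 28 of the 41 were lower (68.3%), where 24.2% of all genes were, and 36% of genes within the subunits' range of mean level (26.8 to 336 CPM). With the replicate number as a block, 17 of the 41 fell (41.5%) and 0 rose, where 15.8% of all genes fell and 21.4% rose. Of the 41, 0 changed by at least 2-fold in the edgeR test without the block, against 2.82% of all genes that fell and 7.55% that rose by that much. The median log2 fold change of the 41 was -0.32, a change of -19.7%, and that of all genes tested was 0.04.

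The direction was shared more widely than the calls. Both JMJD3 libraries lay below both vector libraries for 36 of the 41 subunits, against 35.0% of all genes tested. The fitted change was below 0 for 38 (92.7%), where 47.3% of all genes and 59.9% of genes in the subunits' range of mean level were below 0, the exceptions being PSMD5, PSMG4 and PSMC6, of which PSMC6 turned to below 0 under DESeq2 size factors. Relative to the mean of the vector libraries, the median subunit stood at -0.05 in vector replicate 1, 0.05 in vector replicate 2, -0.31 in JMJD3 replicate 1 and -0.34 in JMJD3 replicate 2 on the log2 scale. The vector libraries also differed from each other: 30 of the 41 were higher in vector replicate 2, and for 4 that gap exceeded the difference between the groups.

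**Figure D1:**
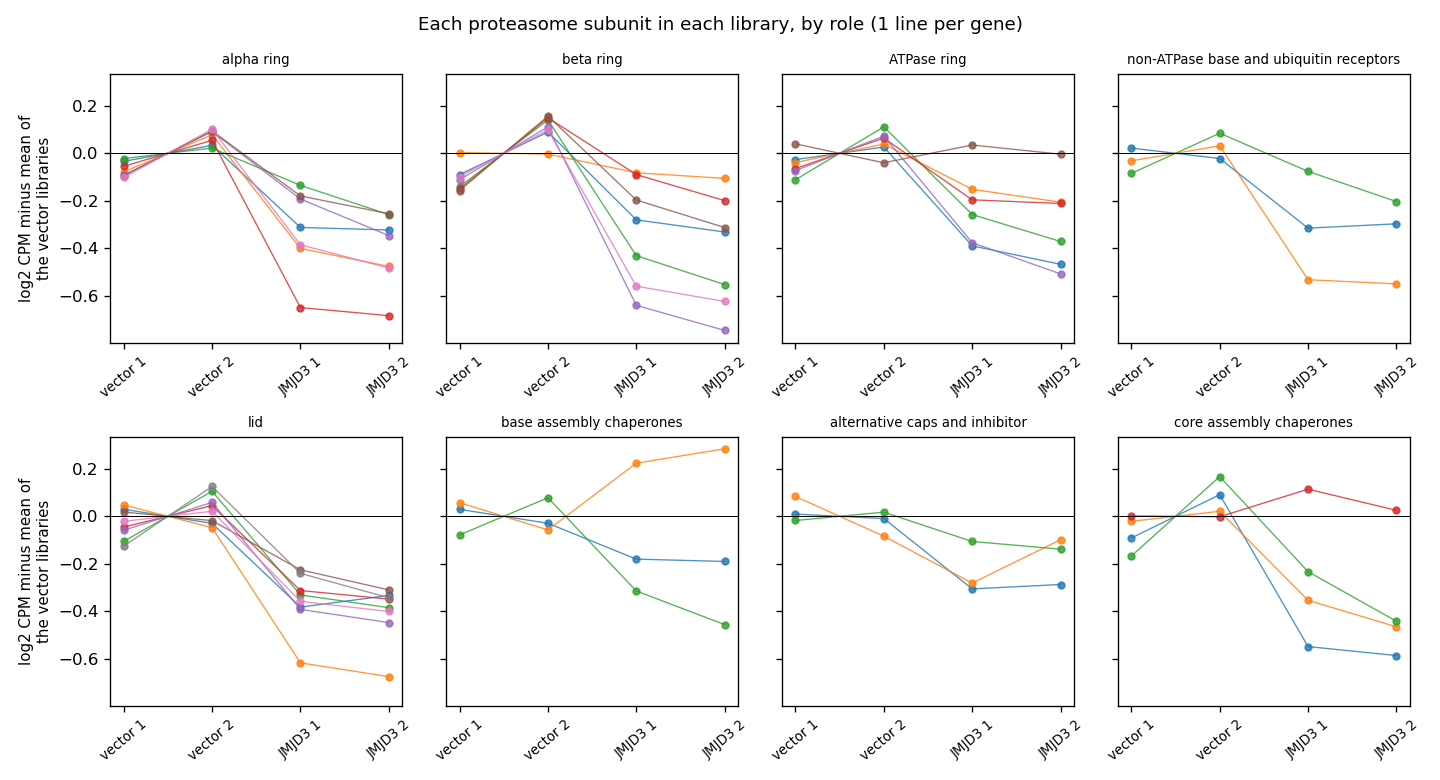
Each line is 1 of the 41 subunits tested, in panels by role, and each point is the log2 CPM in 1 library minus the mean of the 2 vector libraries. Most lines drop below 0 in both JMJD3 libraries, PSMD5 stands above 0 in both, and vector replicate 2 is above vector replicate 1 for 30 of the 41.

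The members are well expressed, and genes of their level moved down more often than others. The 5931 genes tested within their range of mean level had a median log2 fold change of -0.10, and 29.4% of them fell and 13.7% rose. When a smooth trend of the fold change over mean level was removed, an alternative chosen after the data were seen, 7 of the 41 subunits fell (17.1%), beside 19.0% of the genes in that range, and the median of the subunits was -0.13. In that fit the share of subunits that fell was close to that of other genes of their level. PSMB2, PSMB4, PSMC2, PSMD4, PSMF1 and PSMG4 changed sign there, and 34 of the 41 were below 0. Without JMJD3 replicate 1, 10 of the 41 fell, where 9.29% of all genes and 12.2% of those in the range of level did. Without JMJD3 replicate 2, 6 fell, where 7.43% and 9.10% did. Without vector replicate 1, which leaves the comparison within lane 17, 35 fell and PSMD5 rose, with a median of -0.43, where 27.4% of all genes and 43.6% of those in the range fell. Without vector replicate 2, 23 fell, where 21.7% and 35% did. In each fit that leaves a lone library in a group, that library is assumed to vary like the others. The lane and the choice of vector library cannot be told apart there. The share of mitochondrial transcripts also moved with the groups, from 7.91% and 7.65% in the vector libraries to 5.73% and 5.86% in the JMJD3 libraries, and its part in the result was not tested.

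**Figure D2:**
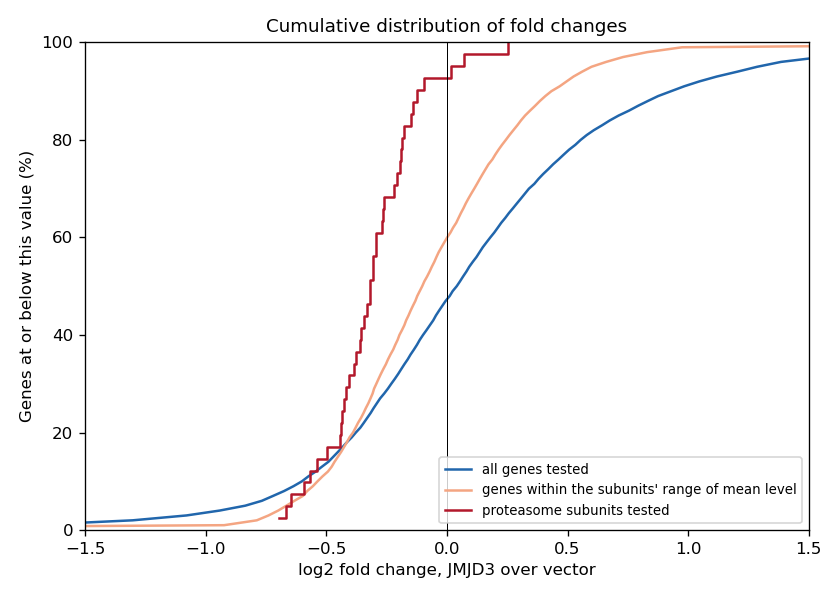
The curves give the percentage of genes at or below each log2 fold change (JMJD3 over vector) for the 41 subunits tested, for the 5931 genes within their range of mean level and for all 15246 genes tested. Through the middle of the range the curve of the subunits lies to the left, with a median of -0.32 against -0.10 and 0.04.

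There were 6 members called lower in each of the 17 fits that were made, the added ones included, namely PSMA4 (ENSG00000041357), PSMB5 (ENSG00000100804), PSMB7 (ENSG00000136930), PSMD2 (ENSG00000175166), PSMD12 (ENSG00000197170) and PSMG1 (ENSG00000183527). They are 14.6% of the 41, where 5.35% of all genes tested and 8.01% of those in the range of level were lower in all 17 fits. The 6 belong to both rings of the core, to the base, to the lid and to the core assembly chaperones.

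**Figure D3:**
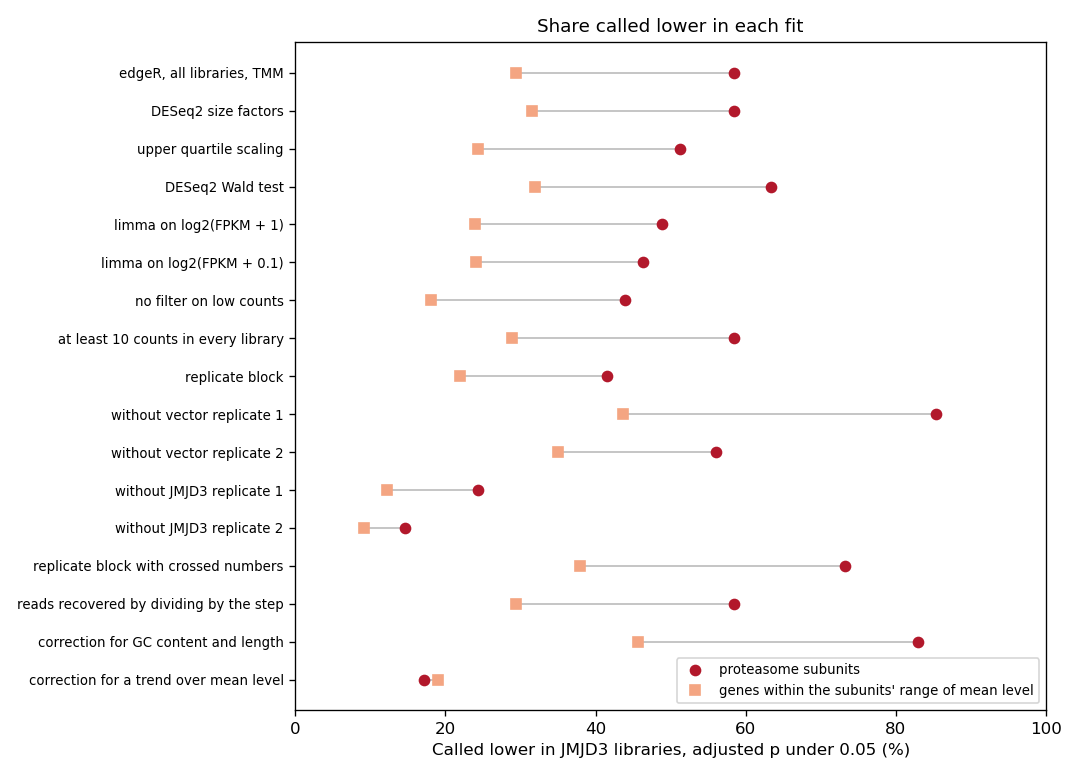
Each row is 1 of the 17 fits, with the percentage of the 41 subunits (circles) and of the genes within their range of mean level (squares) called lower at an adjusted p under 0.05. The subunits stand at 58.5% against 29.4% in the edgeR fit of all libraries, at 14.6% against 9.10% without JMJD3 replicate 2, and at 17.1% against 19.0% after the trend over mean level was removed.

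In the alpha ring, whose subunits gate the entrance of the core, 4 of the 7 genes tested fell and the range of log2 fold changes was -0.67 to -0.19. Beside this count and those of the role groups below, 19.1% of all genes tested fell. Among genes in the subunits' range of level 29.4% fell. PSMA4 was at 396 and 428 CPM in the vector libraries and at 263 and 257 CPM in the JMJD3 libraries. The 2 groups were well apart, with means of 412 ± 22.0 and 260 ± 4.36 CPM (SD, n = 2) and a log2 fold change of -0.67 (SE 0.08, edgeR adjusted p = 0.00207). PSMA3 had the smallest difference of the ring, at 137 and 142 CPM and then 127 and 117 CPM. Its groups did not overlap, but its log2 fold change of -0.19 (SE 0.08) did not pass the test (edgeR adjusted p = 0.103). It passed without vector replicate 1 (-0.26), with crossed replicate numbers as a block (-0.20) and after correction for GC content and length (-0.28), and was -0.02 after the trend over mean level was removed. PSMA2, PSMA7 and PSMA1 also fell, by 0.44, 0.44 and 0.32 on the log2 scale, and PSMA5 and PSMA6, at -0.27 and -0.22, did not pass.

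The beta ring holds the 3 catalytic subunits, and they differed in whether they passed the test. PSMB5, which cuts after hydrophobic residues, was at 149 and 174 CPM in the vector libraries and at 103 and 95.9 CPM in the JMJD3 libraries. In the edgeR fit of all libraries this was the lowest fold change of all 41, at -0.70 (SE 0.10, edgeR adjusted p = 0.00378), a change of -38.2%. PSMD12 was lower than PSMB5 without vector replicate 2 (-0.69 against -0.58). The same held after correction for GC content and length (-0.84 against -0.59) and after the trend over mean level was removed (-0.54 against -0.52). PSMA4 was lower than PSMB5 without vector replicate 2 (-0.61) and after correction for GC content and length (-0.81). With that correction PSMA2, PSMD14, PSMG2 and PSMG1 were also lower than PSMB5, at -0.65, -0.63, -0.62 and -0.60. For PSMB5 the JMJD3 libraries lay well below both vector libraries. PSMB7, which cuts after basic residues, was at 170 and 195 CPM and then at 124 and 118 CPM. Its groups did not overlap, and it fell by 0.59 on the log2 scale (SE 0.09, edgeR adjusted p = 0.00475). PSMB6, which cuts after acidic residues, was at 91.2 and 113 CPM and then at 88.7 and 81.9 CPM. The vector libraries of PSMB6 were farther apart than JMJD3 replicate 1 was from vector replicate 1, and its log2 fold change of -0.26 (SE 0.12) did not pass (edgeR adjusted p = 0.124), while it passed without vector replicate 1 (-0.45) and with crossed replicate numbers as a block (-0.25). Without vector replicate 2 it was -0.09, and after the corrections for GC content with length and for mean level -0.12 and -0.13. Whether the 3 catalytic subunits differ from each other in their change was not tested.

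Among the structural beta subunits PSMB2 had the smallest difference, at 233 and 232 CPM in the vector libraries and 220 and 217 CPM in the JMJD3 libraries. Its log2 fold change was -0.09 (SE 0.07, edgeR adjusted p = 0.327), and it was 0.12 after the trend over mean level was removed. After correction for GC content and length it was -0.20 and passed. PSMB3 and PSMB1 fell, by 0.50 and 0.31 on the log2 scale. In all, 4 of the 7 genes tested in this ring fell, and the groups overlapped for 1 of the 7, PSMB4, at -0.15. PSMB4 turned to above 0 without vector replicate 2 (0.0081) and was at -0.33 without vector replicate 1.

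**Figure D4:**
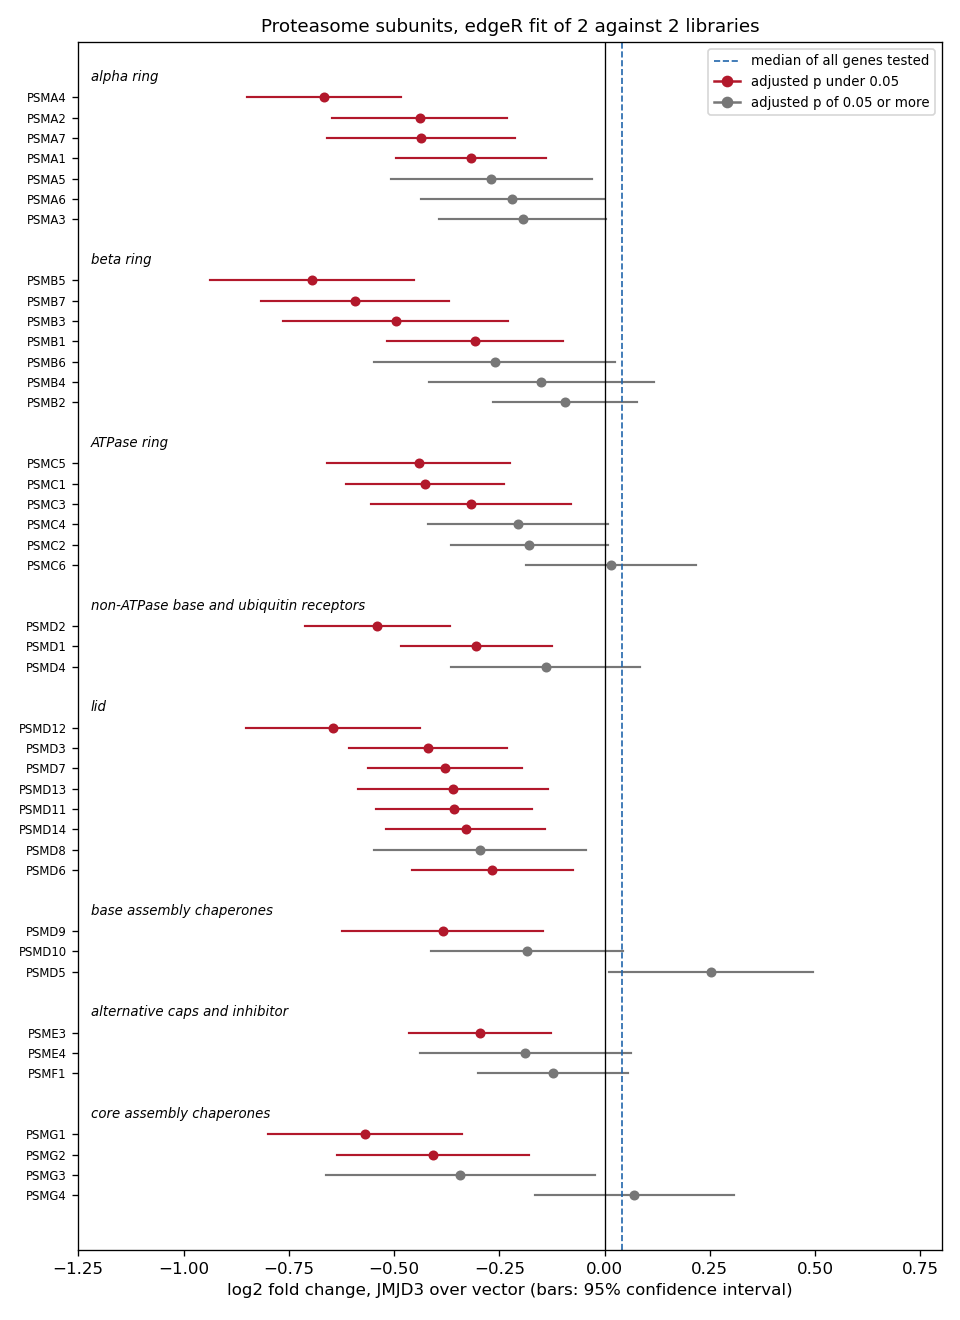
Points are the log2 fold changes (JMJD3 over vector) of the 41 subunits tested, by role, with 95% confidence intervals from the edgeR fit of 2 against 2 libraries, and the dashed line is the median of all genes tested (0.04). The 24 subunits in red had an adjusted p under 0.05, from PSMB5 at -0.70 to PSMD6 at -0.27.

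Of the 6 ATPases of the base, 3 fell. PSMC5 was at 177 and 196 CPM in the vector libraries and at 143 and 131 CPM in the JMJD3 libraries. The groups did not overlap, and it fell by 0.44 on the log2 scale (SE 0.09, edgeR adjusted p = 0.0109), a call that was lost without JMJD3 replicate 2 (-0.38) and after the trend over mean level was removed (-0.25). PSMC6 was level across the libraries, at 83.0, 78.5, 82.7 and 80.5 CPM in vector replicates 1 and 2 and JMJD3 replicates 1 and 2. Its groups overlapped (log2 fold change 0.02, 95% confidence interval -0.19 to 0.22, edgeR adjusted p = 0.896), and its sign turned without vector replicate 2 (-0.02) and without JMJD3 replicate 1 (-0.0042), and after correction for GC content and length (-0.11). PSMC1 fell by 0.43 on the log2 scale, but 76.1% of its exon bases are shared with NRDE2 on the other strand in the GENCODE annotation on GRCh37. NRDE2 was at 35.7 and 36 CPM in the vector libraries and at 23.6 and 25.7 CPM in the JMJD3 libraries, and fell by 0.54. PSMC1 was at 174 and 181 CPM and then at 136 and 128 CPM. Since the library kit does not mark strand, reads from the shared bases cannot be told apart. PSMC3 fell by 0.32, and PSMC4 and PSMC2, at -0.20 and -0.18, did not pass.

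The other base subunits are PSMD1 and PSMD2, scaffolds that bind ubiquitin-like domains, and PSMD4, a receptor for ubiquitin chains. PSMD2 was at 348 and 363 CPM in the vector libraries and at 246 and 243 CPM in the JMJD3 libraries. The gap between the groups was far wider than that within them, with a fall of 0.54 on the log2 scale (SE 0.07, edgeR adjusted p = 0.0029). PSMD4 was at 154 and 173 CPM and then at 155 and 142 CPM. Its groups overlapped, and its log2 fold change of -0.14 (SE 0.09) did not pass (edgeR adjusted p = 0.266), while without vector replicate 1 it was -0.26 and passed. It was -0.05 without vector replicate 2, -0.08 without JMJD3 replicate 2, -0.03 after correction for GC content and length and 0.05 after the trend over mean level was removed. PSMD1 fell by 0.31.

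In the lid 7 of the 8 subunits fell (87.5%), the exception being PSMD8 at -0.30. Of all genes tested 19.1% fell, and 29.4% of those in the subunits' range of level. Both JMJD3 libraries lay below both vector libraries for all 8, against 35.0% of all genes tested. Of the 7, PSMD12 alone was called lower without JMJD3 replicate 1, without JMJD3 replicate 2 and after the trend over mean level was removed. Differences between the role groups were not tested. PSMD12 was at 101 and 94.4 CPM in the vector libraries and at 63.7 and 61.2 CPM in the JMJD3 libraries. It fell by 0.65 on the log2 scale (SE 0.09, edgeR adjusted p = 0.00296), a change of -36.1%, and its groups were far apart. PSMD6 was at 128 and 125 CPM and then at 108 and 102 CPM. The groups did not overlap, and it had the smallest change of the lid, -0.27 (SE 0.08, edgeR adjusted p = 0.0375), and its call was lost without JMJD3 replicate 1 (-0.31) and without JMJD3 replicate 2 (-0.22). The call of PSMD6 was also lost with upper quartile scaling (-0.23), in both limma fits (-0.27), with no filter (-0.27), with the replicate block (-0.27) and after the trend over mean level was removed (-0.11), and after correction for GC content and length it was -0.45. PSMD14, the deubiquitinase of the lid, fell by 0.33, and PSMD3, PSMD7, PSMD13 and PSMD11 fell by 0.42, 0.38, 0.36 and 0.36.

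Of the 3 chaperones that assemble the base, 1 fell (33.3%), near the 29.4% of genes in the subunits' range of level. PSMD9 was at 81.6 and 91.0 CPM in the vector libraries and at 69.3 and 62.9 CPM in the JMJD3 libraries. Its groups did not overlap, and it fell by 0.38 on the log2 scale (SE 0.10, edgeR adjusted p = 0.0233), a call that was lost without JMJD3 replicate 1 (-0.46) and without JMJD3 replicate 2 (-0.32). The call of PSMD9 was also lost with limma at a pseudocount of 0.1 (-0.31), with no filter (-0.39) and after the trend over mean level was removed (-0.29). PSMD5 was at 30.2 and 27.9 CPM and then at 33.9 and 35.4 CPM. Both JMJD3 libraries lay above both vector libraries, and this was the highest fold change of the 41, 0.25 (SE 0.10, edgeR adjusted p = 0.0874), while it passed without vector replicate 1 (0.27) and with crossed replicate numbers as a block (0.25). It was 0.13 after correction for GC content and length, and 0.41 and 0.44 in the limma fits, and did not pass there. The log2 fold change of PSMD10, also called gankyrin, was -0.185 and did not pass.

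PSMG1 to PSMG4 are chaperones of the core, and 2 of these 4 fell. PSMG1 was at 84.1 and 95.4 CPM in the vector libraries and at 61.3 and 59.7 CPM in the JMJD3 libraries. Its groups did not overlap, and it fell by 0.57 on the log2 scale (SE 0.10, edgeR adjusted p = 0.00591). PSMG2, its partner, fell by 0.41. PSMG4 was at 26.1, 26.0, 28.2 and 26.5 CPM in vector replicates 1 and 2 and JMJD3 replicates 1 and 2, so its JMJD3 libraries were barely above the vector libraries, with a log2 fold change of 0.07 (SE 0.10, edgeR adjusted p = 0.597). It was 0.03 without vector replicate 1 and without JMJD3 replicate 1, 0.11 without JMJD3 replicate 2 and -0.02 after the trend over mean level was removed. PSMG3 was at -0.34 and did not pass.

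The alternative caps bind the core in place of the regulatory particle, and with the inhibitor PSMF1 they make 3 genes, of which 1 fell. That share, 33.3%, is near the 29.4% of genes in the subunits' range of level. PSME3, a nuclear activator that works without ubiquitin, was at 304 and 300 CPM in the vector libraries and at 245 and 248 CPM in the JMJD3 libraries. Its groups were well apart, and it fell by 0.30 on the log2 scale (SE 0.07, edgeR adjusted p = 0.0177), a call that was lost without JMJD3 replicate 1 (-0.29) and without JMJD3 replicate 2 (-0.31). The call of PSME3 was also lost in both limma fits (-0.21 and -0.22), with the replicate block (-0.30) and after the trend over mean level was removed (-0.07). PSMF1 was at 172 and 176 CPM and then at 162 and 158 CPM. Its log2 fold change of -0.12 (SE 0.07) did not pass (edgeR adjusted p = 0.228), while it passed without vector replicate 1 (-0.18) and after correction for GC content and length (-0.26), and was 0.07 after the trend over mean level was removed. PSME4 was singled out after its values were seen, because the deposited FPKM, which are per length of transcript, and the counts gave different sizes of change. By FPKM it was at 24.1 and 32.0 in the vector libraries and 14.9 and 14.8 in the JMJD3 libraries, and by counts at 92.9 and 82.8 CPM and then 72.2 and 81.9 CPM. JMJD3 replicate 2 came close to vector replicate 2 by counts, with a log2 fold change of -0.19 (edgeR adjusted p = 0.189), and by FPKM the ratio of the means was -0.92 on the log2 scale. By counts it was -0.10 without JMJD3 replicate 1, and -0.39 after correction for GC content and length, where it passed, and -0.08 after the trend over mean level was removed.

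Compared per length, as FPKM, the subunits of the core were more abundant than those of the regulatory particle. In the vector libraries the median was 256 FPKM over the 14 core subunits tested and 142 over the 17 of the regulatory particle, and in the JMJD3 libraries 192 and 111. The highest mean level in the vector libraries was that of PSMA4, at 642 FPKM, and the lowest that of PSMD5, at 10.8. Summed over the core subunits, FPKM were 3569 and 4121 in the vector libraries and 2940 and 2816 in the JMJD3 libraries.

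Genes that overlap the subunits or run antisense to them were read as a check on shared reads. PSMD5-AS1 was at 7.92 and 6.55 CPM in the vector libraries and at 16.1 and 16.5 CPM in the JMJD3 libraries, and rose by 1.17 on the log2 scale. PSMG3-AS1 was at 2.25 and 1.95 CPM and then at 7.26 and 8.37 CPM, and rose by 1.90. PSMD6-AS2 was at 0.678 and 0.631 CPM and then at 0.241 and 0.358 CPM, and fell by 1.12 (edgeR adjusted p = 0.0429), and 14.3% of its exon bases are shared with PSMD6. PSMA3-AS1 was at 33.9 and 32 CPM and then at 27 and 28.7 CPM, and its log2 fold change of -0.24 did not pass (edgeR adjusted p = 0.0962). These 4 genes, named as antisense to a subunit, were singled out after their values were seen. In the GENCODE annotation on GRCh37 the exons of PSMD5 share no bases with any other gene, and those of PSMG3 share 3.0% with PSMG3-AS1. For PSMD7, 31.2% of the exon bases are shared with AC009120.6 on the other strand, which fell by 0.62 on the log2 scale. For PSMA2, 29.7% are shared with other genes, and 17.2% of the exon bases with RP11-111K18.1, which rose by 0.66. For PSMA1, 26.7% are shared with RP11-140L24.4, which did not pass at 0.23. The shares were 15.3% for PSMC5 (FTSJ3, at -0.21, did not pass), 15.0% for PSMG4, 14.9% for PSMD9 and 14.1% for PSMA6. RP11-87C12.2, the partner of PSMD9, was at 0.535 CPM or less and fell by 2.11, and those of PSMG4 and PSMA6, SLC22A23 and RP11-561B11.2, did not pass. Reads from shared bases cannot be assigned to 1 gene with certainty. Of 31 pseudogenes of the family only PSMC1P1 had more than 10 reads in any library.

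The 5 interferon-inducible genes that were left out of the list replace catalytic subunits of the core (PSMB8, PSMB9, PSMB10) or form a cap (PSME1, PSME2). In the edgeR test 1 of the 5 rose, a share close to the 21.6% of all genes tested that rose. The other 4 did not pass, and the median log2 fold change of the 5 was 0.06. PSMB9 was at 5.70 and 7.19 CPM in the vector libraries and at 19.4 and 18.3 CPM in the JMJD3 libraries. The groups were far apart, and it rose by 1.55 on the log2 scale (SE 0.14, edgeR adjusted p = 0.00123). PSME1 had the lowest fold change of the 5, at 143 and 168 CPM and then 155 and 139 CPM. Its groups overlapped, at -0.08 (edgeR adjusted p = 0.579). The difference between these genes and the other subunits was not tested.

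Other genes of the pathway were grouped by function. Of 9 proteasome proteins with another kind of symbol, 4 fell (44.4%) and 1 rose, with a median of -0.27. Of all genes tested 19.1% fell and 21.6% rose, and 29.4% of those in the subunits' range of level fell. SHFM1, a small lid protein, was the lowest, at 90.6 and 104 CPM in the vector libraries and 72.3 and 61.9 CPM in the JMJD3 libraries. It fell by 0.54 with no overlap of the groups. PAAF1, which binds the ATPases, was the highest, at 25.3 and 27 CPM and then 33.3 and 32.8 CPM. It rose by 0.34, also with no overlap. Of 11 shuttle and p97 genes, 3 fell (27.3%) and 1 rose, a share of falls between the 19.1% of all genes and the 29.4% of genes in the subunits' range of level. VCP, the p97 ATPase that extracts tagged proteins, was at 822 and 825 CPM and then at 623 and 608 CPM. It was the lowest of the 11, and fell by 0.42. UBQLN2, which carries tagged proteins to the proteasome, was at 29.5 and 23.2 CPM and then at 43.8 and 43 CPM, and rose by 0.72.

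NFE2L1 is among the factors that drive transcription of proteasome genes. It is processed by NGLY1 and DDI2 and pairs with small MAF proteins. The list of regulators also holds NFE2L2, KEAP1, NFYA, NFYB and NFYC. Of the 11 regulators, with DDI2 counted among the shuttles too, 3 fell (27.3%) and 1 rose, the same shares as among the shuttles. Of all genes tested 19.1% fell and 21.6% rose. In the subunits' range of level 29.4% fell and 13.7% rose, so the share of falls was near that of genes in this range. NGLY1 was the highest, at 42 and 41.3 CPM in the vector libraries and 63.1 and 62 CPM in the JMJD3 libraries, and rose by 0.59. KEAP1, which holds back the related factor NFE2L2, was the lowest, at 249 and 280 CPM and then 160 and 155 CPM, and fell by 0.75. NFE2L1 and its small MAF partners were singled out after their values were seen. NFE2L1 was at 181 and 168 CPM in the vector libraries and at 165 and 171 CPM in the JMJD3 libraries, and its groups overlapped (log2 fold change -0.06, edgeR adjusted p = 0.602). MAFG was at 143 and 143 CPM and then at 108 and 110 CPM, and fell by 0.39 (edgeR adjusted p = 0.0093). MAFK was at 104 and 111 CPM and then at 82.5 and 82.7 CPM, and fell by 0.38 (edgeR adjusted p = 0.0128). MAFF was at 2.9 and 2.99 CPM and then at 4.93 and 3.65 CPM, and its log2 fold change of 0.55 did not pass (edgeR adjusted p = 0.0588). The groups of these 3 did not overlap.

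**Figure D5:**
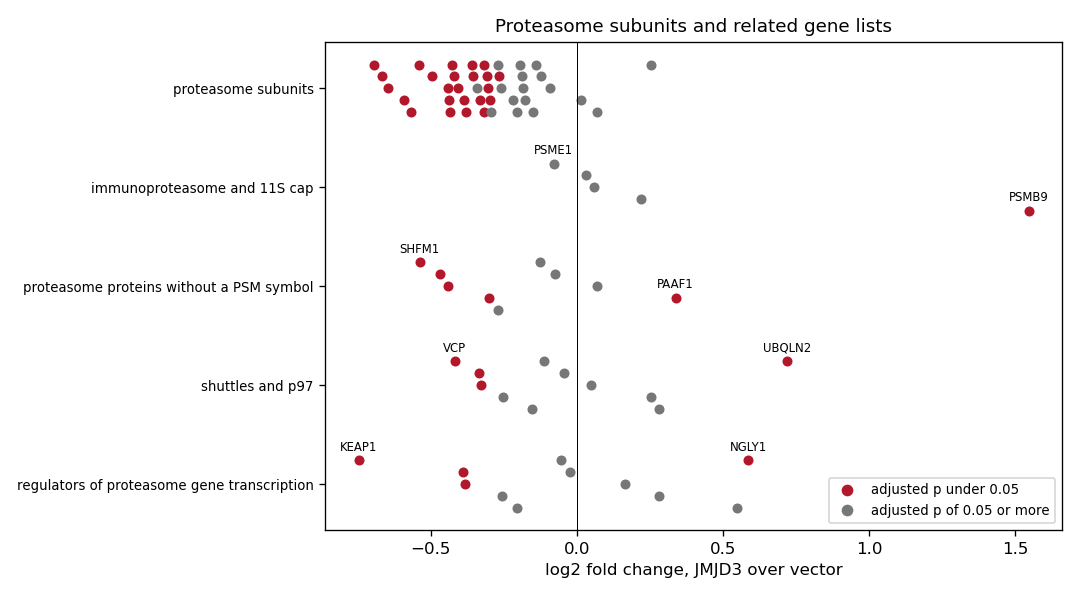
Each point is the log2 fold change (JMJD3 over vector) of 1 gene tested, by list, in red where the adjusted p was under 0.05, and names mark the lowest and highest gene of each list other than the subunits. Among these lists of proteasome, shuttle and regulator genes, which leave out the marker and antisense genes, PSMB9 at 1.55 is the highest point and KEAP1 at -0.75 the lowest.

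NFE2L1 is known to bind antioxidant response elements, and promoters were searched for the core of that element, TGACNNNGC, on both strands. RefSeq promoter windows on GRCh38.p14, 250 bases before to 50 bases after the start, were at hand for 37 of the 43 subunits, in 45 windows because some genes have several, and not for PSMA7, PSMB1, PSMB6, PSMB7, PSMD4 and PSMG3. The core was in 12 of the 45 windows (26.7%), against 13.3% of all 35116 windows. It is 1 of 13 motifs that were searched. CGGAAG, the core bound by ETS factors, was in 27 of the 45 windows, against 19.5% of all, and GGCGGG in 31, against 45.0%. CCAAT was in 19 windows, against 34.6% of all, and its longer form GATTGG, which contains it on the other strand, in 9, against 15.1%. TATAAA was in 5, against 11.5%, CACGTG in 3, against 7.26%, TGACTCA in 3, against 4.95%, and TTNNGNAAT in 4, against 11%. The form ATGACNNNGC, which overlaps the core, was in 3, against 2.27%. TGACGTCA, TTGCGCAA and GGTGGCAAA were in none, and in 1.85%, 0.151% and 0.225% of all windows. A match is a description, not a site or a cause.

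The windows of 5 of the 6 subunits are printed because these were called lower in all 17 fits, and that of PSMD5 because it had the highest fold change. Capitals mark TGACNNNGC or its reverse complement, and where a gene has several windows the one with a match, or the first by position, is shown. Coordinates are on GRCh38.p14: PSMA4 chr15:78540536-78540835 (+), PSMB5 chr14:23034851-23035150 (-), PSMD12 chr17:67366528-67366827 (-), PSMD2 chr3:184298991-184299290 (+), PSMG1 chr21:39183402-39183701 (-) and PSMD5 chr9:120842873-120843172 (-).
PSMA4: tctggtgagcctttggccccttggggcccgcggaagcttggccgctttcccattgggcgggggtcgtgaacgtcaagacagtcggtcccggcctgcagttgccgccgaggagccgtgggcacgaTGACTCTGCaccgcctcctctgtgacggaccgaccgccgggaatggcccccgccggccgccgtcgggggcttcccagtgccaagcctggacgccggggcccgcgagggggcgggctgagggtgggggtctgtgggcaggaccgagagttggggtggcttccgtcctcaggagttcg
PSMB5: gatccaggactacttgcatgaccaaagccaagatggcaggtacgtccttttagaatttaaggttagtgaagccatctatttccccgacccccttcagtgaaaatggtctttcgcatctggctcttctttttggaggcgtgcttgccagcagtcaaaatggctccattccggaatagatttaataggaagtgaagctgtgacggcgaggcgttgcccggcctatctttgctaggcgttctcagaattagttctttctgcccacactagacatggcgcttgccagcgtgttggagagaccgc
PSMD12: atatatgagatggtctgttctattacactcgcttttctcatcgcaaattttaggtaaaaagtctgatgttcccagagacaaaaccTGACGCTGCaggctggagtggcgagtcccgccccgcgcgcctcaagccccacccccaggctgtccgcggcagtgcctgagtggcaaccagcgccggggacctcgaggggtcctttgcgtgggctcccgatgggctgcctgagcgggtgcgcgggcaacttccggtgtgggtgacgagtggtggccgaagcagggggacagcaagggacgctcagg
PSMD2: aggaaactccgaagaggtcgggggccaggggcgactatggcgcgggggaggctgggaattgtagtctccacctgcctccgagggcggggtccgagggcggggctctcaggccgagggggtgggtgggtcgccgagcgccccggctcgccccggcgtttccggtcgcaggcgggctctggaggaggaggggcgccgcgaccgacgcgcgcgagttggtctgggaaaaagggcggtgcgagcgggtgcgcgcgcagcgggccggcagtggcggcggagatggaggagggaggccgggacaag
PSMG1: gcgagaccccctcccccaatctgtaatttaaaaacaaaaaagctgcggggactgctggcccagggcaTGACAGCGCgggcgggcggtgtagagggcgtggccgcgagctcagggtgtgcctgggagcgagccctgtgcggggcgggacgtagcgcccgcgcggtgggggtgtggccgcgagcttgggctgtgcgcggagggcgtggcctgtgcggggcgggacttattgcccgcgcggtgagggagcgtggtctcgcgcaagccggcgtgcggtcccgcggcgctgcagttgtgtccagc
PSMD5: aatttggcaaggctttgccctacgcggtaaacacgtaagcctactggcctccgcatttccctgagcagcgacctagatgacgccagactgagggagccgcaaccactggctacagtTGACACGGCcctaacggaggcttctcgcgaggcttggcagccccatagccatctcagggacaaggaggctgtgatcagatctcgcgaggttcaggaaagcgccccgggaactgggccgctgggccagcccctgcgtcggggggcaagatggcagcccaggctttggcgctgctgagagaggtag
The core was in the windows of PSMA4, PSMD12 and PSMG1, not in those of PSMB5 and PSMD2, and also in that of PSMD5.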

How the data were processed

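Poly(A) RNA of NB4 cells was sequenced in 4 libraries, 2 per group. For each gene, the deposited table holds the authors' expected counts, which are estimated and not whole, and FPKM for the 4 libraries. The submitters' processing notes name CASAVA 1.8, TopHat2 2.0.4, RSEM, edgeR and GRCh38, with no roles or order. The design text of the series names BWA and TopHat with Cufflinks, and the study's methods give unique STAR reads on hg19 counted by HTSeq-count, so which pipeline made the counts, and how it treated overlapping genes, is not known. The authors' own fold change, p-value, FDR and mean FPKM columns were not used. The deposited counts were found to be scaled: 94.0 to 94.3% of the values above 0 lay within 0.1 of a whole multiple of 1 value per library (1.143, 1.0468, 0.9928 and 0.82875 in vector replicates 1 and 2 and JMJD3 replicates 1 and 2), so 34190349, 38947053, 35431670 and 41876261 reads were recovered. The values given are from the deposited counts, rounded to whole numbers, and the recovered reads were an added alternative. Limits from counts of 0 cover counting error only.

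Genes were filtered with filterByExpr, scaled by TMM and tested in R 4.3.3 by the quasi-likelihood F-test of edgeR 4.0.16, with Benjamini-Hochberg adjustment over all genes tested. A call is an adjusted p under 0.05, with a 2-fold change as a second rule. DESeq2 1.42.0, limma 3.58.1 on log2 of FPKM plus 1 or 0.1, other scalings and filters, a replicate block and the fits without each library were alternatives. The code was tested on simulated data. Promoter motifs were counted with Python 3.11.15. The replicates of a group differed by more than sampling noise. Chi-square over degrees of freedom was 24.1 for the vector pair and 5.57 for the JMJD3 pair.

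The members and the gene lists were chosen with earlier results of these data known. Values in every library are given for PSMB5, PSMB6 and PSMB7 and for the tested members with the highest and lowest log2 fold change in each role group. Members that failed the filter are named, and in the other lists the highest and lowest.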

Additional observations from a re-analysis of the deposited data

How the results depend on the processing

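The direction of the median was the same in all 16 alternatives, and the 0 subunits called higher became 1 without vector replicate 1 and with the replicate block on crossed numbers. The number of subunits called lower, 24, ranged from 6 to 35 over the fits without each library, in which the lone sample left in a group is assumed to vary like the others. It was 9 at an adjusted p under 0.01, 0 at 2-fold and 7 after a trend over mean level was removed. After correction for GC content and length it was 34 (82.9%), where 27.8% of all genes and 45.7% of genes in the range of level fell. Subunits called higher ranged from 0 to 1 without each library. The median ranged from -0.43 to -0.28 without each library and was -0.13 after the trend was removed. Genes called higher ranged from 1920 to 4343 without each library, and were 2046 and 2032 with limma at pseudocounts of 1 and 0.1, 1893 with no filter, 1468 at an adjusted p under 0.01 and 1151 at 2-fold, from 3292. Genes called lower ranged from 1133 to 4183 without each library, and were 4240 with correction for GC content and length, 1776 with no filter, 1300 at an adjusted p under 0.01 and 430 at 2-fold, from 2906. A stricter threshold calls fewer genes by construction, and otherwise the cause was not tested. KDM6B stayed higher in every fit.

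The replicate numbers share only a number, and same-numbered libraries did not deviate together (r = -0.146 over genes). With the replicate number as a block, 17 subunits were called lower and 0 higher, the median was -0.31, and 3267 genes were called higher and 2415 lower, and KDM6B was at 1.47. With crossed numbers 30 subunits were called lower (73.2%), where 24.7% of all genes and 37.9% of genes in the range of level were.

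These alternatives were chosen after seeing the data: crossed numbers, recovered reads, GC content with length, and the trend over mean level. Over the 18 named subunits, 247 of 288 values kept their sign and their side of the threshold, 21 lost and 11 gained a call, and 9 changed sign. These were PSMC6 with DESeq2 size factors and the DESeq2 test (-0.0179 in both), without vector replicate 2 (-0.0224), without JMJD3 replicate 1 (-0.0042; range -0.0224 to 0.0344 without each library) and with GC content and length (-0.1149), and with the trend removed PSMF1 (0.0731), PSMB2 (0.1243), PSMG4 (-0.0157) and PSMD4 (0.0491).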
